A study of Mus musculus with 4 samples.

Results

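A set of germline genes, listed as silenced by promoter DNA methylation, was examined in mouse liver. The set holds 34 genes, out of 34614 annotated protein-coding and lncRNA genes, chosen by name for their roles in germ cells and meiosis. For each gene the CpGs within 1 kb of the annotated gene end that had more listed CpGs were taken, on build mm10, and the gene body more than 1 kb from both ends served as a contrast. The assay was reduced representation bisulfite sequencing, which reads CpG-rich fragments cut by MspI and TaqI, in 2 libraries from Pnpla7-/- liver (KO) and 2 libraries from Pnpla7+/+ liver (WT). All 4 came from C57BL6/N mice aged 6 weeks. Pnpla7 encodes a lysophospholipase of phosphatidylcholine breakdown. Whether libraries of one genotype came from separate animals is not labelled, so the p-values measure only the spread between these libraries, which may be technical. A level is the share of reads that were methylated, and a difference is KO minus WT in percentage points.

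In the body, most genes with CpG-rich promoters are free of promoter methylation whether or not they are used. Germline genes are the classic exception. Around implantation the embryo places methylation on their promoters through DNMT3B, and a repressor complex built on E2F6, MGA and MAX (PRC1.6) binds them at E2F6 sites and at the E-box, the MAX family site. DNMT1 then carries the mark through cell division, and the genes are switched on again only in germ cells, where the mark is erased. RNA was not measured here, so what follows describes methylation and not silencing.

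The promoter sequences show how CpG-rich these genes are and which of their CpGs the libraries read. The 6 that follow are RefSeq entries on GRCm38.p6 (mm10), each 300 bases long, from 250 bases before to 50 bases after the start site, written 5′ to 3′ on the gene's strand. Capitals mark the CpGs that had 10 or more reads in all 4 libraries. Hormad1, Sycp1 and Ddx4 hold an E-box CpG that was read, Asz1 and Slc25a31 are among the promoters with the smallest p between genotypes, and Tdrd5 is the unmethylated exception. The intervals are chr3:95559427-95559726 on the plus strand for Hormad1, chr3:102936051-102936350 on the minus strand for Sycp1, and chr13:112652261-112652560 on the minus strand for Ddx4. They are chr6:18109012-18109311 on the minus strand for Asz1, chr3:40708621-40708920 on the plus strand for Slc25a31, and chr1:156303299-156303598 on the minus strand for Tdrd5.
Hormad1: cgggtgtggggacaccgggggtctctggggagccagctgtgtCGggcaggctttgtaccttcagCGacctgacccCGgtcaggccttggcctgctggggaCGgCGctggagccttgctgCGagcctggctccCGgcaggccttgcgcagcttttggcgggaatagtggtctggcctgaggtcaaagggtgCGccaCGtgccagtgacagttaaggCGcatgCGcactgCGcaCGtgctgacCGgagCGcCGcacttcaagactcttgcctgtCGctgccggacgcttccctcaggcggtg
Sycp1: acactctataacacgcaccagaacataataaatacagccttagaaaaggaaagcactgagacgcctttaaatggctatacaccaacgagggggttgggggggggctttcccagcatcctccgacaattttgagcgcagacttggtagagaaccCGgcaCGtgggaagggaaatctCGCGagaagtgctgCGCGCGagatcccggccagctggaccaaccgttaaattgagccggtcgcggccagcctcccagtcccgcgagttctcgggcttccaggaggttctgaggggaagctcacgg
Ddx4: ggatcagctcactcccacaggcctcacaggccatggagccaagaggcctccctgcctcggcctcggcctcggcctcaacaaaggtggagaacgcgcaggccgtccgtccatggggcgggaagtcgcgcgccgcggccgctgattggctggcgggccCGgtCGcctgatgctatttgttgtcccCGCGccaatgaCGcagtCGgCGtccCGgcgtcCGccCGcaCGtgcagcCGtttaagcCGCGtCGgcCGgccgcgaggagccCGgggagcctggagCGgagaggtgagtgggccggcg
Asz1: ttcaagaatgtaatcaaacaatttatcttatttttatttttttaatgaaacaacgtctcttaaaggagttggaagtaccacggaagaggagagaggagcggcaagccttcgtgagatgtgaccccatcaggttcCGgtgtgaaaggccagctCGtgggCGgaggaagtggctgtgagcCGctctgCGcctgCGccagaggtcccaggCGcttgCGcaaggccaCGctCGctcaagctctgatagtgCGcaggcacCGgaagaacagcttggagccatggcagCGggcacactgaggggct
Slc25a31: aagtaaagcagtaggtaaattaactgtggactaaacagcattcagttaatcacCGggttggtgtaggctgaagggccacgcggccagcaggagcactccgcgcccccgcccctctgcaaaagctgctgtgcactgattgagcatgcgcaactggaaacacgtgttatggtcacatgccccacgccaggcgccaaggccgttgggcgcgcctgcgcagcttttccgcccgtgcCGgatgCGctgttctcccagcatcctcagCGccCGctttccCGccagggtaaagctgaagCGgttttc
Tdrd5: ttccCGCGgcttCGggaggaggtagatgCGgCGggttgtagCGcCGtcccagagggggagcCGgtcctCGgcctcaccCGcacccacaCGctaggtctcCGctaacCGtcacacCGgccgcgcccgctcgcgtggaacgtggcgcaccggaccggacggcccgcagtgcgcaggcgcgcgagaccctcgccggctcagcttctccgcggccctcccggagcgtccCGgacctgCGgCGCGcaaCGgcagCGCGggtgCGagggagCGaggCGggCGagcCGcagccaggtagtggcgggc
The Hormad1 sequence holds 24 CpGs, of which 17 were read, and its levels were 89.5% and 91.3% in KO, against 88.4% and 88.2% in WT. The Tdrd5 sequence is richer still, with 48 CpGs and 26 read, and its levels were 1.04% and 0.885% in KO, against 0.904% and 1.96% in WT. Dense CpGs thus stood nearly fully methylated in one germline promoter and almost unmethylated in another, in all 4 libraries.

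The libraries held 59953688 and 60535892 reads over cytosines in KO, and 50413170 and 59437109 in WT. At 1600691 CpGs every library had at least 10 reads, with a median of 25 and 25 reads in KO and of 21 and 25 in WT. The mean level over these CpGs was 45.1% and 45.2% in KO, against 44.9% and 44.7% in WT. The window of Pnpla7 itself was at 0.563% and 0.657% in KO and at 0.532% and 0.640% in WT, which does not check the genotype, since a deletion need not alter methylation. Of the tested marker windows, 5 of 7 for hepatocytes and 4 of 4 for endothelial and stellate cells lay below 20%, as did 69.1% of all windows, and 4 of 5 for leukocytes lay above 70%, so these levels do not identify the cells. The sex of the animals is not labelled.

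All 34 germline genes had listed CpGs in their window, and 27 had the 3 or more analysed CpGs that a test needed. Where the reference gives the strand, 21 of these windows lay at the gene start and 2, those of Syce1 and Stra8, at the gene's 3′ end. The strand was not available for Meiob, Piwil2, Spo11 and Tex15. Sycp2, Tex11 and Piwil4 had only 1 or 2 analysed CpGs, and Stk31, Piwil1, Tdrd6 and Dmrtb1 had 0.

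Of the 27 measured windows, 18 were methylated above 70%, 6 lay between 20% and 70%, and 3 lay below 20%. Over all 20753 gene windows with 3 or more analysed CpGs the order is the reverse, with 18.8% of windows above 70% and 69.1% below 20%. The median level of the germline windows was 87.0%, against 2.98% over all windows. In single libraries the germline median was 87.0% and 84.9% in KO and 83.9% and 86.1% in WT, so each library alone gives the same picture. High methylation was thus found at the gene end used in 18 of 27 genes and not in Tdrd5, Meiob and Tex15. A gene end is not always the promoter: the Syce1 window is at the 3′ end, and for Piwil2, Meiob and Tex15 the end used cannot be told. The RefSeq start site of Figla lies 697 bp inside the annotated gene, and no CpG of that promoter was analysed. In Tex15 all analysed CpGs lay 500 to 1000 bp inside the end used.

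**Figure D1:**
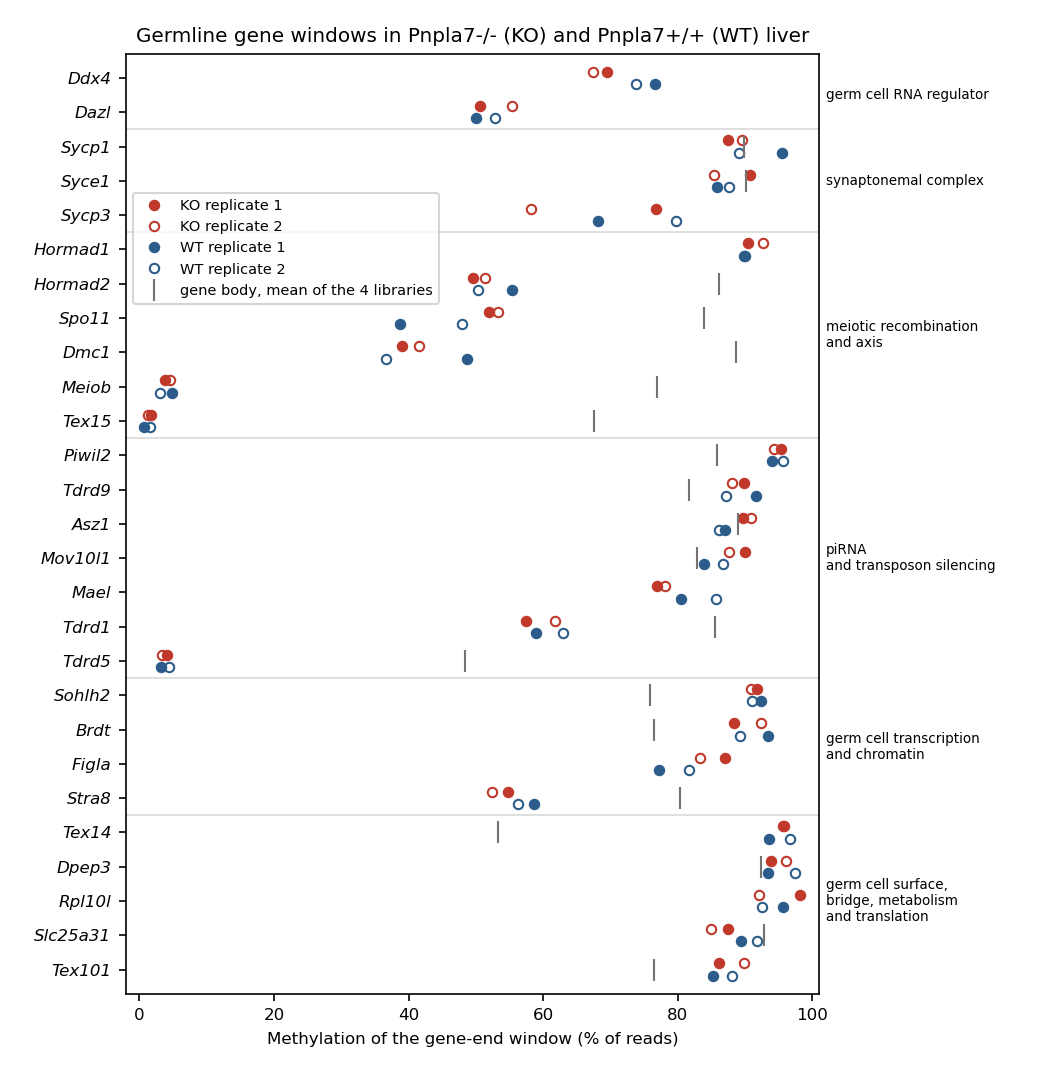
Methylation of the gene-end window (x axis, % of reads) of the 27 germline genes with 3 or more analysed CpGs, grouped by role; red points are the KO libraries, blue points the WT libraries, filled for replicate 1 and open for replicate 2, and grey ticks the mean level of the gene body where it was tested. Most windows sit above 70% in all 4 libraries, beside their body, and those of Meiob, Tex15 and Tdrd5 sit below 20%.

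Few other genes with dense CpGs were this methylated. Among windows with at least 20 listed CpGs, 12 of 19 germline windows were above 70% and their median was 80.3%. Of the 14352 other windows this dense, 435 or 3.03% were above 70%, 90.7% were below 20%, and the median was 1.21%. With at least 40 listed CpGs, 5 of 9 germline windows were above 70%, with a median of 71.8%, against 34 of 10425 others, which is 0.326%, with a median of 0.932%. These shares are descriptions and no support, since the genes were picked by name with earlier results of these data known.

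**Figure D2:**
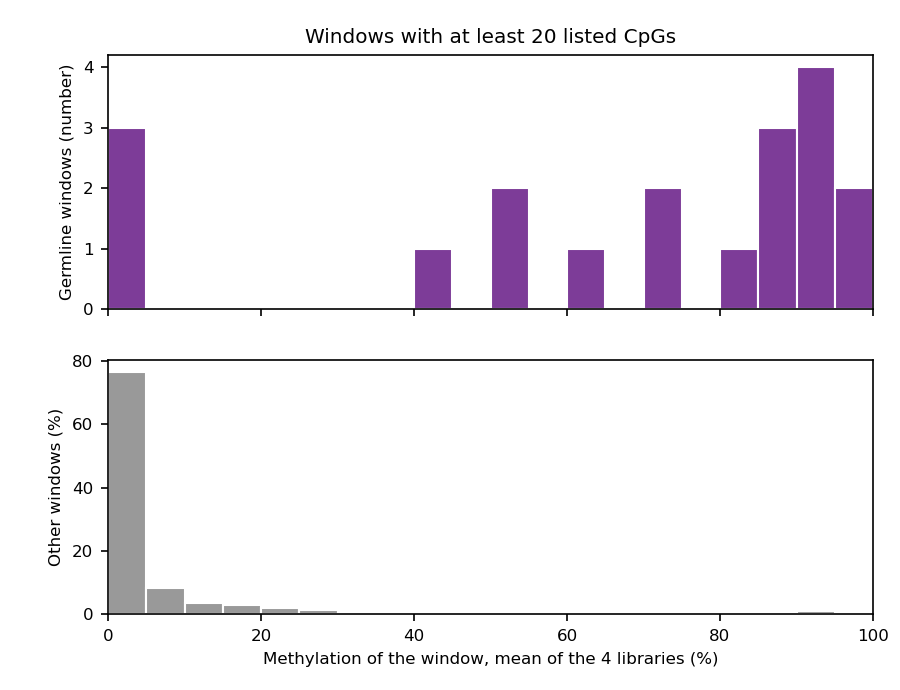
Distribution of window methylation (x axis, mean of the 4 libraries, %) in 5-point steps for windows with at least 20 listed CpGs; the upper panel counts the 19 germline windows and the lower panel gives the percentage of the 14352 others. The germline windows pile up at the right, with 3 at the far left, where 76.4% of the others lie.

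RefSeq promoters could be measured in fewer genes. RefSeq holds 34 promoter entries for 28 of the genes, with a median of 18.5 CpGs per 300 bases, against 7 over all 32851 entries. Of the 13 genes with 3 or more analysed CpGs inside the 300 bases, 11 were above 70%, Hormad2 was intermediate and Tdrd5 was below 20%. Their median level was 87.7%, against 0.696% over 9497 promoters, of which 4.49% were above 70%. Dazl, Dmc1, Meiob, Tex15, Spo11 and Tdrd1 are not among the 13, so these are not the same genes as the windows. Also missing are Sycp3, Tdrd9, Brdt, Tex14, Dpep3, Figla, Syce1 and Piwil2, whose windows were above 70%. No CpG of the RefSeq promoters of Sycp3, Tdrd9, Brdt, Tex14, Dpep3 and Syce1 was analysed, so their windows do not give the promoter level. Dmrtb1, a transcription factor of spermatogonia, had no analysed CpG at its gene end. Its RefSeq promoters lie 19781 and 20422 bp inside the annotated gene, and there 25 CpGs were at 87.7% and 83.3% in KO, against 87.0% and 79.2% in WT.

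The level of the gene body served as a contrast. Bodies are methylated in most genes, and the 26 germline bodies tested had a median of 82.2%, against 77.5% over all bodies. The window minus body difference had a median of -1.66 points over the 20 germline genes with both, 9 of them higher in the window. Over 15614 genes with both, the median was -61.0 points and 15.3% were higher in the window. The 20 genes were split, since Meiob, Tex15, Dmc1, Tdrd5, Spo11, Hormad2, Tdrd1 and Stra8 had differences of -72.9 to -24.8 points and the other 12 genes of -4.5 to 42.2 points. The highest of these was Tex14, at 95.4% in the window and 53.2% in the body.

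The synaptonemal complex, the protein zipper that joins paired chromosomes in meiosis, was represented by Sycp1, Sycp3 and Syce1. Sycp1, its transverse filament, was at 87.4% and 89.5% in KO, against 95.5% and 89.1% in WT, over 10 CpGs. Its difference of -3.82 points was -0.604 without WT replicate 1 and -7.04 without WT replicate 2. Sycp3, an axial element protein, was more scattered, with 76.7% and 58.3% in KO and 68.2% and 79.7% in WT. Its KO libraries differed by more than the genotypes did, and its difference of -6.43 points (95% interval -17.4 to 4.57) had an adjusted p of 0.879 and was 2.80 points without KO replicate 2, -0.665 without WT replicate 2, -12.2 without WT replicate 1 and -15.7 without KO replicate 1. Syce1, a central element protein, averaged 88.1% ± 3.87 in KO and 86.7% ± 1.29 in WT (SD, n = 2 each), but at its 3′ end and not at its start. Sycp2, another axial element protein, had 1 analysed CpG. With reads of any depth over 31 listed CpGs it stood at 83.2% and 79.6% in KO, against 79.5% and 77.1% in WT.

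The genes of meiotic recombination and of the chromosome axis were the most mixed group, with 1 of 6 measured windows above 70%, 3 intermediate and 2 below 20%. Hormad1, which marks unsynapsed axes, was at 90.5% and 92.6% in KO, against 89.9% and 90.0% in WT, over 23 CpGs. Both KO libraries lay above both WT libraries, by less than 3 points. Hormad2, its relative, was intermediate at 49.6% and 51.4% in KO, against 55.4% and 50.3% in WT, and 12 of its 16 CpGs were themselves between 20% and 70%. Spo11, which makes the DNA breaks of meiosis, was at 52.0% and 53.3% in KO and at 38.8% and 47.9% in WT. Only 3 CpGs and 48 to 60 reads per library lie behind it, and the interval of its difference of 9.32 points runs from -7.97 to 26.6. That difference was 4.75 points without WT replicate 1 and 2.96 points with CpGs of at least 5 reads.

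Meiob and Tex15 were nearly free of methylation at the CpGs analysed. Meiob, a single-strand DNA binding protein of recombination, was at 3.81% and 4.59% in KO, against 4.79% and 3.04% in WT, over 25 CpGs. The first 500 bp inside the gene end used held 20 CpGs, with no library above 1% in either 250-bp step. Only the CpG 946 bp inside was above 20%, at 76% and 78.1% in KO, against 100% and 68% in WT. Tex15, known in mice for recombination and transposon silencing, was at 1.78% and 1.26% in KO, against 0.688% and 1.52% in WT, with all 33 CpGs below 20%. All 33 lay 500 to 1000 bp inside the end used. CpGs nearer that end or before it were not measured, so its state there is not known. Tex11, an X-linked synapsis factor, had 2 analysed CpGs. With reads of any depth it was at 88.6% and 90.6% in KO, against 89.3% and 80.3% in WT.

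Dmc1, the meiotic strand-exchange recombinase, combined opposite states in one window. Its window averaged 39.0% and 41.5% in KO, against 48.7% and 36.7% in WT. The 4 CpGs more than 750 bp before the gene start were at 97.7% and 93.6% in KO, against 93.4% and 81.8% in WT. The 5 CpGs in the first 250 bp of the gene were at 5.33% and 7.04% in KO, against 20% and 10.5% in WT. A window average near 40% here stands for a methylated flank and mostly unmethylated CpGs inside the gene. No CpG between these stretches was analysed, nor any of the 18 CpGs in the RefSeq promoter. The level at the start site itself was therefore not measured.

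Dazl, an RNA-binding protein that germ cells need, also held opposite states, and here the boundary between them was read at a fine scale. Its window held 70 analysed CpGs, 35 above 70%, 32 below 20% and 3 between. Before the start site, from 500 to 250 bp upstream, 8 CpGs were at 95.8% and 96.0% in KO, against 97.3% and 98.2% in WT. In the first 250 bp of the gene 12 CpGs were at 90.2% and 91.9% in KO, against 93.4% and 90.1% in WT. From 500 to 750 bp inside the gene 26 CpGs were at 3.03% and 1.59% in KO, against 1.48% and 1.98% in WT.

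The step in Dazl took about 100 bp. The mean over the 4 libraries was 75.9% at the CpG 472 bp inside the gene (chr17:50293148), 29.7% at 491 bp, 14% at 501 bp and 3.71% at 588 bp. At the 491-bp CpG the single libraries were at 35.3% and 33.3% in KO, against 28.6% and 21.4% in WT, so the step lay at the same CpGs in all 4. The window average of 50.6% and 55.4% in KO, against 50% and 52.9% in WT, therefore does not describe any stretch of this gene. The analysed CpGs before the start site and in the first 250 bp after it stood at 90% or more in each 250-bp step and library. None of them lay in the last 250 bp before the start site, and none of the 28 CpGs of the RefSeq promoter was analysed. Ddx4, the other RNA regulator measured, is described with the genotype comparison below, and Stk31, a tudor domain protein of germ cells, had no CpG read deeply enough. With reads of any depth Stk31 was at 87.8% and 78.1% in KO, against 86.6% and 87.5% in WT, from 16 to 82 reads.

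**Figure D3:**
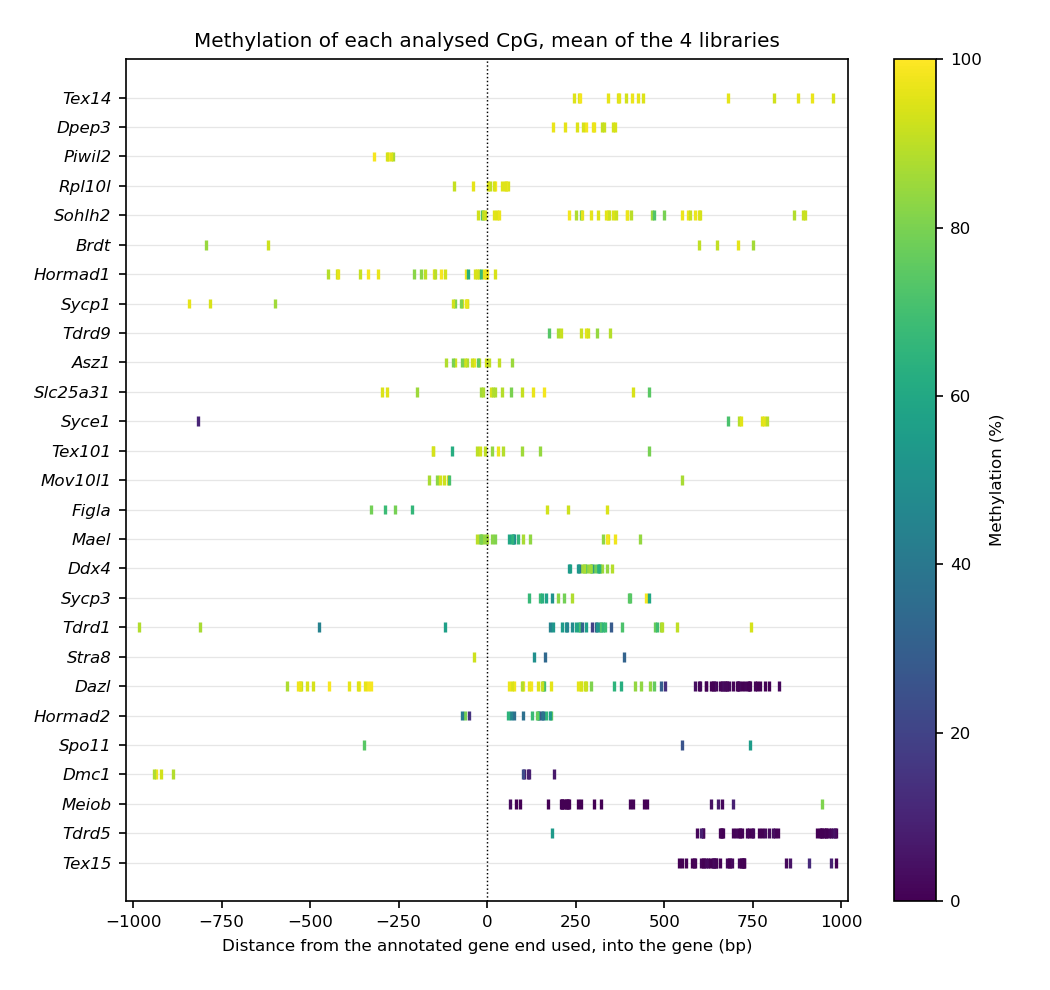
Position of every analysed CpG in the 27 windows (x axis, bp from the annotated gene end used, positive into the gene) coloured by its methylation (colour bar, mean of the 4 libraries, %), genes ordered by window level. Most rows have one colour, while Dazl and Dmc1 pass within the window from methylated to unmethylated. Tdrd5 and Meiob are dark except for single CpGs, and Tex15 is dark throughout.

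The piRNA genes guard the germ line against transposons by loading small RNAs onto PIWI proteins, and 5 of the 7 measured were above 70%. Piwil2, the PIWI protein MILI, was at 95.4% and 94.4% in KO, against 94.0% and 95.7% in WT. The helicase Tdrd9 averaged 89.0% ± 1.21 in KO and 89.4% ± 3.16 in WT, and Mov10l1, the helicase of piRNA precursors, 88.8% ± 1.64 in KO and 85.3% ± 2.04 in WT (SD, n = 2 each). The Mov10l1 window also holds an end of Mlc1, a gene expressed in brain astrocytes, upstream of its start. Among the PIWI genes with too few analysed CpGs, Piwil4 (MIWI2) was at 86.7% and 76.5% in KO, against 90.0% and 82.9% in WT, from 30 to 40 reads of any depth. Piwil1 (MIWI) had no reads at its chosen end in 3 libraries. Its other end, at any depth, was at 78.3% and 67.2% in KO, against 63.5% and 51.9% in WT, from 52 to 64 reads.

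Among the tudor domain genes, which build the piRNA granules, no common state appeared. Tdrd1 was intermediate, at 57.4% and 61.8% in KO, against 58.9% and 63.0% in WT. Unlike Dazl it had no boundary of that kind, since 19 of its 30 CpGs were between 20% and 70%. Its 18 CpGs from 250 to 500 bp inside the gene were at 52.4% and 55.0% in KO, against 53.6% and 60.1% in WT. An intermediate level can come from a share of cells, a share of alleles or partial methylation throughout, and these cannot be told apart in bulk liver from per-CpG values. Tdrd5 was at 4.14% and 3.38% in KO, against 3.15% and 4.39% in WT. Its RefSeq start site lies 956 bp inside the annotated gene, amid these unmethylated CpGs, and the CpG nearest the annotated end, 182 bp into the gene, was at 60.0% and 59.4% in KO, against 45.9% and 51.4% in WT. Tdrd6 had no analysed CpG in its window, and the 98 CpGs of its body were at 39.9%, the lowest of the germline bodies tested. With reads of any depth its chosen end was at 58.1% and 65.9% in KO, against 61.7% and 69.1% in WT, from 31 to 55 reads. Its other end was at 93.9% and 90.7% in KO, against 92.6% and 93.2% in WT, from 82 to 122 reads.

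Regulators of germ cell transcription and chromatin were methylated in 3 of 4 measured windows. Sohlh2, a bHLH factor of germ cells, had 33 CpGs at 91.3% ± 0.651 in KO and 91.7% ± 1.02 in WT (SD, n = 2 each). Brdt, the testis bromodomain protein, averaged 90.4% ± 2.84 in KO and 91.3% ± 2.96 in WT. Figla, a bHLH factor of oocytes, was at 87.0% and 83.2% in KO, against 77.2% and 81.7% in WT, over 7 CpGs outside its RefSeq promoter. The window of Stra8, the gatekeeper of meiosis that retinoic acid induces, was at 54.8% and 52.4% in KO, against 58.6% and 56.2% in WT. It rests on 4 CpGs at the 3′ end of the gene. Nearer the Stra8 start, 3 CpGs within chr6:34921001-34922000 were at 95.6% and 92.9% in KO, against 87.2% and 100% in WT, from 33 to 45 reads. No CpG of the Stra8 RefSeq promoter was analysed. The genotypes did not overlap in the windows of Figla or Stra8, with intervals of -2.13 to 13.4 points for Figla and -18.0 to 10.3 for Stra8. The Figla difference of 5.65 points was 3.41 without WT replicate 1.

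The 5 genes of the germ cell surface, bridge, metabolism and translation were all above 87% over the 4 libraries. Tex14, which keeps germ cells joined by bridges, was at 95.6% and 95.8% in KO, against 93.6% and 96.7% in WT. Its window also holds an end of Rad51c, a DNA repair gene used in many tissues just upstream of Tex14, but every analysed CpG lay inside Tex14. Dpep3, a testis dipeptidase, was at 93.9% and 96.0% in KO, against 93.5% and 97.5% in WT. Rpl10l, the retrogene copy that stands in for the X-linked ribosomal protein gene Rpl10 in male meiosis, averaged 95.1% ± 4.36 in KO and 94.1% ± 2.12 in WT (SD, n = 2 each). Tex101, a germ cell surface glycoprotein, averaged 88.0% ± 2.70 in KO and 86.7% ± 1.98 in WT.

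The comparison between genotypes asks whether loss of Pnpla7, an enzyme of the choline-containing phospholipids, goes with altered methylation in liver. No germline window was called different between KO and WT, where a call needed a Benjamini-Hochberg adjusted p under 0.05 and 10 points in the quasi-binomial model. Over all gene windows 7 of 20689 were called, or 0.0338%, so 0 of 27 is near that background. At an unadjusted p under 0.05 there were 3 germline windows, Ddx4, Slc25a31 and Mael, where 6.4% of all windows passed. The alternative test, limma on log2 ratios, called 0 windows and had 0 germline windows at that unadjusted p.

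Differences went in both directions. KO was higher in 13 windows and lower in 14, with a median of -0.0114 points, against 0.0153 over all windows, and 22 of the 27 differed by less than 5 points. The median gap between the libraries of one genotype was 2.13 points in KO and 2.88 in WT, and the median size of the genotype difference was 1.59. The groups did not overlap in 9 windows, 5 with KO above and 4 with KO below. Over all windows 34.4% did not overlap, 17.9% with KO above and 16.5% with KO below, a share close to that of the germline windows. The 95% interval stayed within 10 points either way for 19 windows and within 5 points for 6, so smaller changes were not resolved at this depth for the rest.

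**Figure D4:**
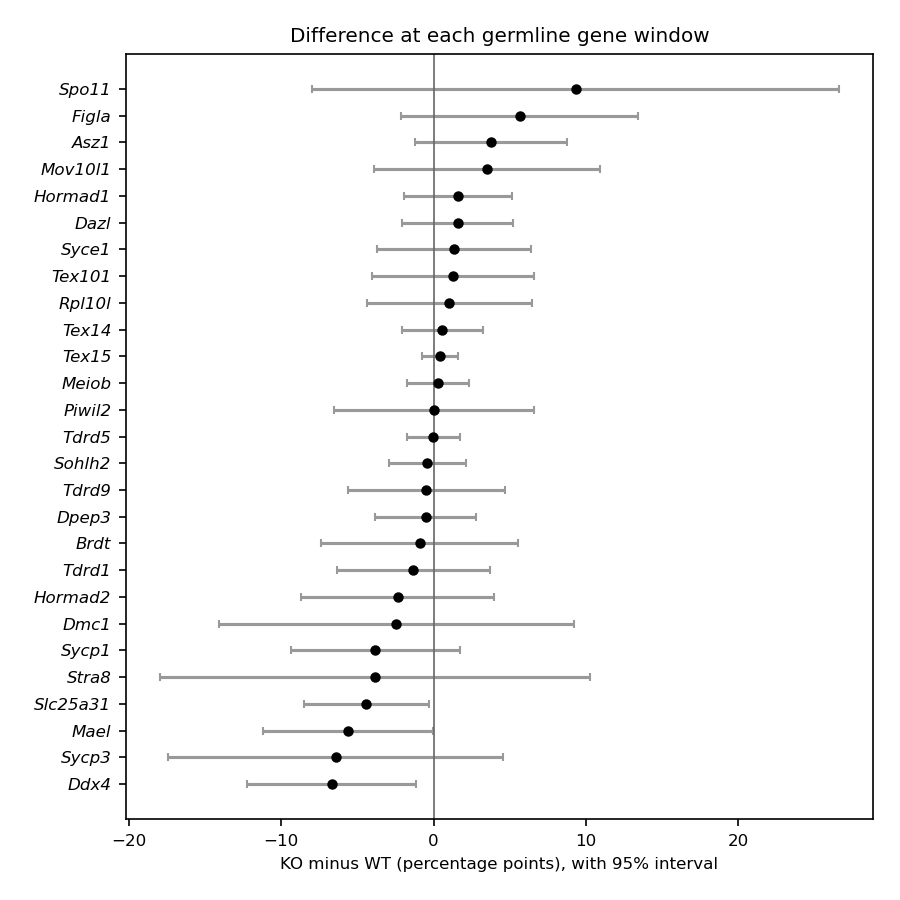
Difference between genotypes at each germline window (x axis, KO minus WT in percentage points; points are the difference of the 2-library means, bars the 95% interval from the quasi-binomial model). The bars of all but Ddx4, Slc25a31 and Mael include 0, and none of the 27 was called after adjustment over all windows.

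Ddx4, the germ cell RNA helicase and homolog of Drosophila vasa, had the smallest p. It was at 69.5% and 67.4% in KO, against 76.6% and 73.7% in WT, from 354 to 448 reads at 18 CpGs, all in the promoter printed above. The KO libraries were both lower, the difference was -6.70 points (95% interval -12.2 to -1.18), and the adjusted p was 0.642. With CpGs of at least 20 reads the difference was -4.43 points. Mael, a piRNA factor known as maelstrom, was at 77.0% and 78.1% in KO, against 80.6% and 85.7% in WT. Its difference was -5.61 points (-11.2 to -0.0393), with an adjusted p of 0.774, and was -3.04 points without WT replicate 2. Slc25a31, the testis ADP/ATP carrier ANT4, was at 87.5% and 84.9% in KO, against 89.4% and 91.8% in WT. Its difference was -4.42 points (-8.53 to -0.305), with an adjusted p of 0.720.

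Asz1, the piRNA factor GASZ that sits on mitochondria, differed in the other direction. It was at 89.8% and 90.9% in KO, against 87.0% and 86.1% in WT, a difference of 3.78 points (-1.21 to 8.77) with an adjusted p of 0.862. In the 300-base promoter alone it was at 91.1% and 93.0% in KO, against 86.0% and 85.0% in WT. That difference of 6.54 points had an unadjusted p of 0.0147 and an adjusted p of 0.70. Single CpGs in Asz1 did not all go the same way. The CpG 26 bp upstream (chr6:18109087) was at 94.1% and 100% in KO, against 85.7% and 23.1% in WT, from 13 to 17 reads, so its difference rests on WT replicate 2. The CpG 70 bp inside the gene was at 73.7% and 77.4% in KO, against 96.2% and 92.1% in WT.

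Among the 13 measured promoters of 300 bases, no call was made and 4 had an unadjusted p under 0.05, those of Ddx4, Asz1, Slc25a31 and Sycp1, where 6.85% of all promoters did. Sycp1 was at 87.2% and 86.7% in KO, against 94.9% and 92.0% in WT, with an adjusted p of 0.70. All 4 had that adjusted p over the 9497 promoters tested, so none passed the limit of 0.05.

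Bodies, tiles and single CpGs gave no call either. Of the germline bodies 0 of 26 were called, against 0.019% of all bodies, and 1 had an unadjusted p under 0.05, against 5.77%. That body was Brdt, at 78.9% and 80.7% in KO, against 76.9% and 69.5% in WT. Of the 1-kb tiles in the genes or within 5 kb of them, 0 of 160 were called, against 0.0874% of all tiles, and 12 had an unadjusted p under 0.05, against 6.31%. The smallest p was in a tile beside Syce1 that lies in Cyp2e1, a liver cytochrome P450, at chr7:140774001-140775000. It was at 34.6% and 25.6% in KO, against 48.0% and 46.5% in WT, with an adjusted p of 0.279. Of the single CpGs 0 of 407 were called, against 0.000712% of all CpGs, and 22 had an unadjusted p under 0.05, against 3.85%. A CpG with 5 of 10 reads methylated has a 95% interval (exact, Clopper-Pearson) of 18.7% to 81.3%, so single CpGs resolve little. On log2 ratios limma called none of these bodies, tiles or CpGs either. This interval covers counting error only.

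The promoter sequences were searched for 4 motifs, with no test. The E-box, CACGTG, reads the same on both strands and occurred in 15 of the 34 promoter entries, 44.1%, against 7.15% of all 32851 entries. Among the 9764 entries with at least 18 CpGs the share was 11.6%. By gene it was 12 of 28, against 8.09% of all genes. The E2F6 core TCCCGC, searched on both strands, occurred in 11 of the 34 entries, 32.4%, against 20% of all and 47.7% of the CpG-rich ones. The MspI site CCGG, on which the assay depends, occurred in 73.5% of the germline entries, against 52.8% of all and 94.3% of the CpG-rich ones, and the TaqI site TCGA in 20.6%, against 22% of all. CCGG and TCGA also read the same on both strands, and none of these 4 motifs contains another. Several entries of one gene overlap, as the pair for Hormad1 does.

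In the promoters that were methylated, the CpG at the centre of the E-box was less methylated than its neighbours. This was noticed after the values had been seen and is given without a test. It could be read at 5 E-box CpGs in 4 genes, all of them more than 10 points below the median of the other CpGs of their promoter over the 4 libraries, with a median gap of -26.2 points. Of the 117 other CpGs in methylated germline promoters, 19 were that far below, or 16.2%, with a median gap of 0.173.

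In Hormad1, where the E-box appears in the printed sequence as caCGtg at 2 places, the CpG 55 bp upstream was at 53.8% and 78.8% in KO, against 52.9% and 61.9% in WT. The CpG 18 bp upstream was at 53.3% and 72.2% in KO, against 63.6% and 81.8% in WT. The other CpGs of that promoter had a median of 93.9%, so the dips were narrow and present in both genotypes. In Ddx4 the E-box CpG 26 bp upstream was at 46.2% and 24.0% in KO, against 60.0% and 70.6% in WT, where the others had a median of 81.5%. It was not the lowest CpG of Ddx4, since the one 64 bp upstream of the start site, outside any E-box, was at 39.3% and 46.9% in KO, against 39.1% and 34.6% in WT. In Sycp1 the E-box CpG 91 bp upstream was at 66.7% and 62.5% in KO, against 100% and 92.3% in WT, so the dip there was in KO alone, from 13 to 24 reads. Its unadjusted p of 0.00359 was the smallest of the 407 germline CpGs and its adjusted p was 0.743. In Mov10l1 the E-box CpG 244 bp upstream was at 78.9% and 93.3% in KO, against 83.3% and 75% in WT, beside a median of 93.0%; the CpG at the other edge of that cluster, in no E-box, was lower, at 78.9% and 64.7% in KO, against 66.7% and 75% in WT.

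**Figure D5:**
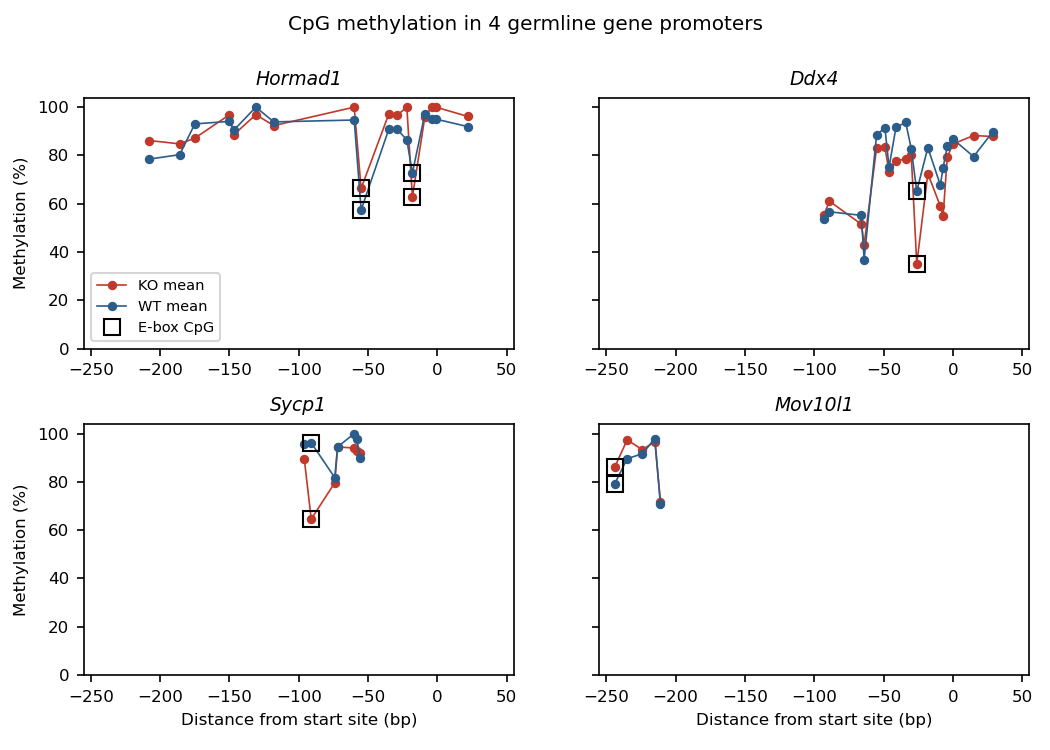
Methylation of the analysed CpGs (y axis, %) along the promoters of Hormad1, Ddx4, Sycp1 and Mov10l1 (x axis, bp from the RefSeq start site), as the mean of the 2 KO libraries (red) and of the 2 WT libraries (blue); black squares mark the E-box CpGs. In Hormad1 both E-box CpGs dip in both genotypes, in Ddx4 the E-box CpG is at 35.1% in KO and 65.3% in WT, and in Sycp1 the dip is in KO. The reverse holds in Mov10l1 (86.1% in KO, 79.2% in WT) and 55 bp upstream in Hormad1 (66.3% in KO, 57.4% in WT). The Ddx4 values rest on 17 to 30 reads per library, and no germline CpG was called.

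Outside the germline set the same position was low as well. Of 17 E-box CpGs in methylated promoters of other genes, 10 were more than 10 points below their neighbours, or 58.8%, with a median gap of -16.7 points. Of 50 other CpGs in the core ACGT of no E-box, 20 were, or 40%, and of all remaining CpGs 17.7%. The E2F6 core was read in 4 germline genes. Its CpG was at 0% in all 4 libraries in Tdrd5 and averaged 94.7% in KO and 96.9% in WT in Rpl10l. In Slc25a31 it was at 78.6% and 84.2% in KO, against 92.9% and 95% in WT, and in Mael at 85.7% and 90.5% in KO, against 76% and 76.5% in WT, so these differed in opposite directions.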

How the data were processed

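Liver DNA was digested with TaqI and MspI and made into bisulfite libraries, per the labels' protocols. The authors deposited, for each library, a track of signed methylation fractions and a track of signed read depth (raw counts of reads per cytosine) on mm10, made with GBSA per the file headers; the sign marks the strand. The submitters' processing notes list BWA 0.7.12 and MACS but give no role for either. Fraction times depth was whole at 100% of positions (tolerance 1e-06) and gave methylated reads. Strands were summed, and 1600691 of 3485585 CpGs, those read 10 or more times in all libraries, were kept. Methylated and unmethylated reads were summed over windows, bodies and tiles (1 kb) with at least 3 such CpGs, and fitted over all features with a quasi-binomial model, its dispersion shrunk by limma 3.58.1 (R 4.3.3) and held at 1 or above, two-sided quasi-likelihood F tests and adjustment by Benjamini-Hochberg. In simulated data, changes were planted only in features of intermediate level. The model missed most 10-point changes and nearly all changes at single CpGs, so the absence of a call shows little there. In windows it found 17.7% of 10-point, 62.5% of 20-point and 87.7% of 30-point changes. Changes in windows above 70% or below 20%, where most germline windows lie, were not simulated. Features whose reads were all methylated or all unmethylated had no test. Members, lists and several choices were made with earlier results of these data known. Per-library values were given for the 8 members of smallest p, the 3 highest and all below 70%; others were added for their sequence or depth. Other lists' genes were named by smallest p.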

Additional observations from a re-analysis of the deposited data

How the results depend on the processing

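No germline window, body, tile or CpG was called under any alternative run: other coverage minimums, priors, window sizes and ends, the deepest CpGs removed, limma, the replicate block, and leaving out each library in turn. With the replicate block the count of germline calls was 0, as was the count over all windows, where 7 had been called. Over all features the alternatives called 0 to 10 windows (7 as reported), 0 to 6 bodies (4), 0 to 202 tiles (143) and 0 to 102 CpGs (9), and without any one library 0 windows and 0 to 2 tiles. The difference at 7 of the 8 windows of smallest p kept its sign throughout; that of Sycp3 was 2.80 points without KO replicate 2 and -15.7 without KO replicate 1. The median germline level of 87.0% was 83.8% with at least 5 reads (30 genes), 70.9% with at least 20 reads (13 genes), 85.2% within 2 kb (29 genes), 93.9% at the other annotated end (5 genes) and 81.7% as a mean over CpGs; the genes measured differ between all but the last of these settings, for which the cause was not tested. Without each library in turn it lay between 86.1% and 87.9%. At the annotated gene start it was 88.4%. The same-numbered libraries of the genotypes shared no deviation (correlation 0.0085 over 3432 windows). At 10 reads a single CpG is measured only coarsely.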

Other observations

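Other genes of the same pathways were not methylated alike. Of 20 further piRNA genes 18 had a measured window, 9 above 70%, 4 between and 5 below 20%, with a median of 70.6% in KO and 73.6% in WT. Henmt1, which methylates piRNA ends, was at 19.8% and 28.4% in KO, against 37.8% and 30.6% in WT, with an adjusted p of 0.719. Rnf17, a tudor domain gene, was at 75.9% and 74.2% in KO, against 77.5% and 83.6% in WT, with an adjusted p of 0.810. Of 26 further meiosis genes 20 were measured, 4 above 70%, 1 between and 15 below 20%, with a median of 5.78% in KO and 5.63% in WT. Msh4, a crossover gene, was at 84.7% and 82.9% in KO, against 90.6% and 93.2% in WT, with an adjusted p of 0.638. Syce2, of the central element, was at 9.35% and 9.99% in KO, against 13.1% and 11.8% in WT, with an adjusted p of 0.591. Of 21 genes of the machinery that represses germline genes 19 were measured, all below 20%, with a median of 0.784% in KO and 0.689% in WT; Ring1 and E2f6 had the smallest p, with adjusted p of 0.745 and 0.774. No window of these lists was called by the quasi-binomial model, where 0.0338% of all windows were; 1 of the piRNA, 2 of the meiosis and 2 of the repressor windows had an unadjusted p under 0.05, against 6.4% of all windows, and limma called 0 windows in all.

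Cell type marker windows were also without a call, and 2 of them, those of Tat and Cyp2e1, had an unadjusted p under 0.05, where 6.4% of all windows did and 0.0338% were called. Among hepatocyte genes Tat, an enzyme of tyrosine breakdown, was at 66.2% and 62.0% in KO, against 41.4% and 48.4% in WT, with an adjusted p of 0.191. Cyp2e1 had an adjusted p of 0.426 in its window, which has the same levels as the tile beside Syce1 given above. The windows of Tat and Cyp2e1 lie at the 3′ ends of the genes and not at their starts. Those of the leukocyte genes Cd79a and Clec4f do too. The medians were 16.9% in KO and 14.3% in WT for 7 hepatocyte genes, 78.7% in KO and 82.0% in WT for 5 leukocyte genes, and 8.16% in KO and 8.72% in WT for 4 endothelial and stellate genes. Their part in the germline values was not tested.

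The E-box CpGs that dipped in methylated promoters outside the set included those of Topaz1, Taf7l and Fkbp6, which are themselves germ cell genes and were picked after their values had been seen. The Topaz1 CpG was at 38.3% in KO and 39.4% in WT, where the others of its promoter had a median of 88.0%. The CpG of Taf7l, which is X-linked in animals whose sex is not labelled, was at 37.2% in KO and 42.8% in WT, beside a median of 75.8%, and the Fkbp6 CpG at 70.6% in KO and 58.3% in WT, beside 86.6%.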
